A study of Mus musculus with 6 samples.

Results

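The BCL2 family and the mitochondrial apoptosis genes were described in tumor endothelial cells (TECs) that had lost Atg5, an essential autophagy gene. The genes were chosen by name, as Bcl2, Bcl2l1, Api5, Bax, Bad, Bid, Bbc3 and Casp9, which are 8 of the 750 genes in the deposited table. Of these, 7 were among the 379 genes kept by the authors' low-signal filter and were tested, and Bid was below that filter. RNA of 6 samples was measured on the NanoString nCounter, where each transcript is captured by a probe with a color-coded tag and the tags are counted directly, with no amplification step.

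The 3 ATG5BECKO samples (replicates 2, 3 and 5) came from Atg5 fl/fl mice carrying the tamoxifen-inducible Pdgfb-CreERT2 transgene, which recombines in blood endothelial cells, and the 3 WT samples (replicates 1, 4 and 6) from their Cre-negative littermates. Per the study's methods, the Cre line carried a Rosa26 tdTomato reporter, tamoxifen was given for 5 days, and mice of both sexes were 7 to 14 weeks old. All mice, of strain C57Blk6 in the labels, bore B16-F10 melanomas (a mouse melanoma line) grown for 18 days from 250000 cells placed under the skin. After depletion of CD45+ cells and enrichment on CD31, live CD45-CD31+ cells were sorted. The study's methods give at least 3 mice per group for TEC analyses. Whether 1 mouse or several went into a sample is not given in the sources used here. The p-values rest on the spread between samples, and whether that is the spread between single mice is not known. Atg5 has no probe in the table, so the deletion could not be checked in these values.

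In the mitochondrial route to apoptosis, Bcl2 and Bcl2l1 (BCL-XL) hold back Bax, which otherwise permeabilizes the outer mitochondrial membrane. The BH3-only proteins Bad, Bid and Bbc3 (PUMA) tip this balance toward death, and cytochrome c released from mitochondria then activates the initiator caspase Casp9. Api5 is an apoptosis inhibitor outside the BCL2 family. Much of this control acts on the proteins, by phosphorylation of Bad and cleavage of Bid for instance, and was not measured by counting transcripts. BCL2 also binds the autophagy protein Beclin 1, which ties the family to autophagy.

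The promoters of the genes are shown where they hold a motif of NF-κB or p53, transcription factors known to regulate some of these genes, since other targets of both factors (Birc3, Mdm2, Cdkn1a) are described further on. RefSeq promoter windows (GRCm38.p6, 250 bases before to 50 bases after an annotated start) matched all 8 genes with 13 windows. Each was searched on both strands for 4 motifs, which were the NF-κB consensus, the p53 half-site, the GAS motif bound by STAT factors, TTCNNNGAA, and CACGTG (an E-box). In the stretches below, written 5′ to 3′ along the gene's strand, capitals mark the match.
Bcl2l1, chr2:152830908-152830967, minus strand, NF-κB consensus: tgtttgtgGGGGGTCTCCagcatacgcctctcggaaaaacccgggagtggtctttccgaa
Bbc3, chr7:16309421-16309480, plus strand, NF-κB consensus (2 overlapping matches): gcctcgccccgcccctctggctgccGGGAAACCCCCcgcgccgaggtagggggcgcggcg
Bax, chr7:45467065-45467124, minus strand, p53 half-site: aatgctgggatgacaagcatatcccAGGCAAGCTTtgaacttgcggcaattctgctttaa
The NF-κB consensus was in 2 of the 13 windows and in 8.46% of all 32851 windows. The p53 half-site was in 1 window, against 8.36% of all windows, CACGTG in 2 windows, of Bax and Bbc3, against 7.15%, and TTCNNNGAA in 0 windows, against 8.30%. Such matches describe the letters of a window, and binding was not measured.

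Total counts ran from 168454 to 198541 in ATG5BECKO samples and from 76784 to 244561 in WT samples, with the lowest total in WT replicate 6. WT replicate 4 had the lowest median log2 level over the tested genes, at 6.41, against 6.95 to 7.04 in ATG5BECKO samples and 6.59 to 6.81 in the other WT samples. The endothelial label was borne out, since all 10 endothelial markers (among them Pecam1, Cdh5 and Kdr) were above the low-signal filter, averaging a log2 of 11.08 ± 0.22 in ATG5BECKO and 11.01 ± 0.03 in WT samples (SD, n = 3 each). Of 9 fibroblast and mural markers 3 were tested. Normalized counts summed over all 9, low-signal ones included, were 221 to 325 in ATG5BECKO and 339 to 840 in WT samples. All 3 tested markers were lower at an unadjusted limma p under 0.05, against 0.792% of all tested genes in this direction. No other tested gene was lower at this threshold. Of 15 leukocyte markers 3 were tested. The sum over all 15 was 331 to 444 in ATG5BECKO and 213 to 592 in WT samples. Of 2 melanoma cell markers 1, Mlana, was tested. The sum over the 2 was 32.9 to 53.2 in ATG5BECKO and 36.9 to 85.1 in WT samples. The part of these cells in the results below was not tested. In sorted bulk cells, fewer cells with a transcript and less transcript per cell cannot be told apart.

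Transcripts of the mitochondrial apoptosis genes differed little between ATG5BECKO and WT TECs. Differences on the log2 scale ran from -0.13 for Bcl2l1 to 0.23 for Casp9, and 0 of the 7 tested genes reached an unadjusted p under 0.05 in limma, against 16.1% of all 379 tested genes. None of the 7 reached the study's thresholds (an absolute log2 difference of at least 0.7 with an unadjusted p under 0.05), which 10.8% of all tested genes reached as higher and 0.792% as lower. After Benjamini-Hochberg adjustment over the 379 genes the 7 had adjusted p values of 0.573 to 0.961, and 0% of all tested genes were called. The 95% interval of the difference lay within 0.7 either way for 5 of the 7 genes, the exceptions being Bax and Bbc3, and for 24.3% of all tested genes.

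**Figure D1:**
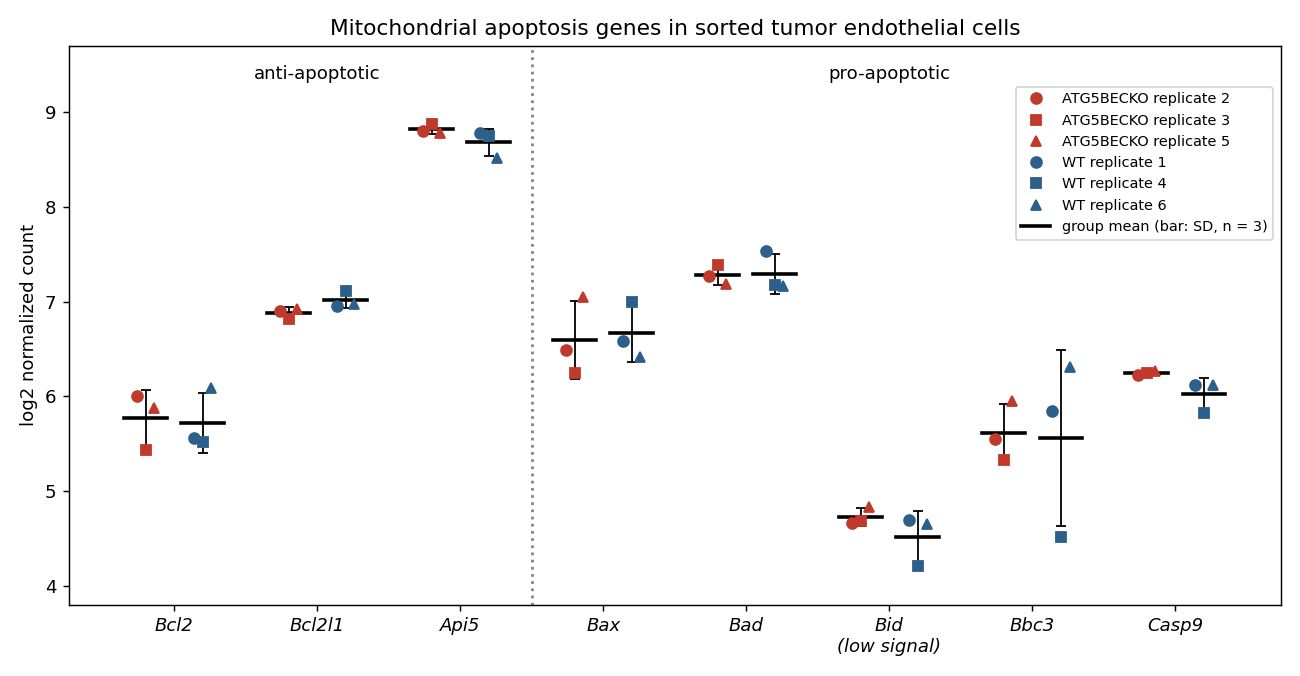
Log2 normalized counts (y axis) of the 8 genes (x axis), with 1 point per sample, ATG5BECKO in red to the left of WT in blue, a line at each group's mean and bars of 1 SD (n = 3). Levels of different probes are not comparable with each other. The groups overlap for Bcl2, Bax, Bad, Bid and Bbc3, and WT replicate 4 is the lowest point of Bbc3 at 4.52.

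Among the inhibitors of apoptosis, Bcl2 had log2 normalized counts of 6.00, 5.43 and 5.88 in ATG5BECKO replicates 2, 3 and 5, against 5.56, 5.52 and 6.08 in WT replicates 1, 4 and 6. Both the lowest sample (ATG5BECKO replicate 3) and the highest (WT replicate 6) lay outside the other group's range, and the groups overlapped. Bcl2 differed by 0.05 (SE 0.25, 95% interval -0.54 to 0.64, limma adjusted p = 0.933). It was counted from 42 to 71 times in ATG5BECKO samples and from 35 to 72 times in WT samples, so counting alone gives an SD of about 0.20 on the log2 scale, against a within-group SD of 0.31.

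Bcl2l1, which encodes the survival protein BCL-XL, had log2 normalized counts of 6.91, 6.82 and 6.93 in ATG5BECKO TECs, against 6.95, 7.11 and 6.98 in WT TECs. All 3 ATG5BECKO samples were below all 3 WT samples, by a gap of 0.03 between the nearest samples, a pattern that 2.11% of all tested genes showed in this direction. The difference was -0.13 (SE 0.16, 95% interval -0.52 to 0.26, limma unadjusted p = 0.448, adjusted p = 0.771). Its within-group SD of 0.073 was below the 0.134 expected from counting alone, and only 1.32% of the tested genes had a smaller one.

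Api5 was also steady between samples. It had log2 normalized counts of 8.80, 8.88 and 8.78 in ATG5BECKO TECs, against 8.78, 8.75 and 8.52 in WT TECs. The groups did not overlap, but ATG5BECKO replicate 5 and WT replicate 1 were separated by only 0.00016 on the log2 scale, far less than the counting SD of 0.073, and 25.6% of all tested genes showed such a separation with ATG5BECKO higher. The difference of Api5 was 0.14 (SE 0.17, 95% interval -0.26 to 0.54, limma adjusted p = 0.766), and was 0.06 without WT replicate 6, its lowest sample.

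Of the pro-apoptotic genes, Bax, the pore-forming effector, had log2 normalized counts of 6.49, 6.25 and 7.04 in ATG5BECKO TECs, against 6.59, 6.997 and 6.41 in WT TECs. One sample of each group (ATG5BECKO replicate 5 and WT replicate 4) was high, and the others were between 6.25 and 6.59. The difference was -0.07 (SE 0.27, 95% interval -0.72 to 0.58, limma adjusted p = 0.905), with a within-group SD of 0.36 against a counting SD of 0.15.

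Bad, a BH3-only sensitizer that binds BCL2 and BCL-XL, had log2 normalized counts of 7.27, 7.39 and 7.18 in ATG5BECKO TECs, against 7.54, 7.18 and 7.16 in WT TECs. WT replicate 1 was highest, and the groups overlapped. Of the 7 tested genes Bad had the smallest difference, at -0.01 (SE 0.19, 95% interval -0.46 to 0.43, limma adjusted p = 0.961).

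Bbc3, a BH3-only gene induced by p53, varied most. It had log2 normalized counts of 5.55, 5.32 and 5.95 in ATG5BECKO TECs, against 5.84, 4.52 and 6.31 in WT TECs. The 2 extremes were both WT samples, and WT replicate 4, at 36 counts, was about level with the 95th percentile of the low-signal genes in that sample (4.54). The within-group SD of 0.70 exceeded that of 90.0% of the tested genes and the counting SD of 0.21. The difference was 0.05 (SE 0.46, 95% interval -1.04 to 1.14, limma adjusted p = 0.951), and without WT replicate 4 it was -0.47 (SE 0.27, limma unadjusted p = 0.122).

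Bid, which links death receptors to mitochondria once caspase-8 cleaves it, had log2 normalized counts of 4.66, 4.68 and 4.83 in ATG5BECKO TECs, against 4.70, 4.20 and 4.65 in WT TECs. These values came from 25 to 30 counts in ATG5BECKO and 13 to 29 counts in WT samples, and lay below the 95th percentile of the low-signal genes in every sample (4.90 to 5.40 in ATG5BECKO and 4.54 to 5.57 in WT samples). Fitted with all 750 genes, Bid differed by 0.21 (SE 0.26, 95% interval -0.40 to 0.81, limma adjusted p = 0.966).

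Casp9, the initiator caspase of the route, was the most even of the 8 genes within ATG5BECKO TECs, with log2 normalized counts of 6.23, 6.25 and 6.26, against 6.12, 5.82 and 6.12 in WT TECs. All ATG5BECKO samples were above all WT samples, and WT replicate 4 was lowest. Of all tested genes 25.6% showed such a separation with ATG5BECKO higher. The gap of 0.10 and the within-group SD of 0.12 were both below the counting SD of 0.18. The difference of Casp9 was the greatest of the 7 tested genes, at 0.23 (SE 0.17, 95% interval -0.19 to 0.64, limma unadjusted p = 0.237, adjusted p = 0.573). It was below the median of all tested genes (0.24), and was 0.13 without WT replicate 4.

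The direction of the small differences of Bcl2, Api5, Bbc3 and Casp9 depended on the scaling of the samples. Those of Bcl2l1, Bax and Bad were negative under all 3 scalings compared here. Over all 379 tested genes the median difference was 0.24 with the deposited scaling. It was -0.14 after centring each sample on its median and -0.05 after quantile normalization. In the same order, 74.4%, 33.0% and 42.2% of all tested genes were positive. The 7 tested genes had medians of 0.05, -0.33 and -0.28 under these 3 scalings, with 4, 0 and 0 of them positive. Relative to the median of all tested genes they were thus at -0.19, -0.19 and -0.23. Under both other scalings the lowest of the 7 was Bcl2l1, with a difference of -0.51 (SE 0.22, unadjusted p = 0.0472, adjusted p = 0.336) after median centring and -0.45 (SE 0.15, unadjusted p = 0.0232, adjusted p = 0.270) after quantile normalization in limma. At this unadjusted threshold 8.18% and 7.92% of all tested genes were lower under these 2 scalings. Quantile-normalized log2 values of Bcl2l1 were 6.67 to 6.71 in ATG5BECKO TECs and 6.99 to 7.37 in WT TECs, without overlap. Groups lay apart with ATG5BECKO lower for 2 of the 7 genes after median centring (Bcl2l1 and Casp9), against 12.9% of all tested genes, and for 2 after quantile normalization (Bcl2l1 and Bad), against 10.8%. Casp9, whose ATG5BECKO samples were the higher ones with the deposited scaling, had a difference of -0.15 after median centring, with its ATG5BECKO samples all below its WT samples, and -0.04 with overlap after quantile normalization. Api5 had differences of -0.24 and -0.12 with overlapping groups. Bcl2 (-0.33 and -0.13) and Bbc3 (-0.33 and -0.28) also turned negative. The direction of Casp9, Api5, Bcl2 and Bbc3 is therefore not settled. Nor is that of Bax and Bad, which turned sign when a single sample was left out.

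**Figure D2:**
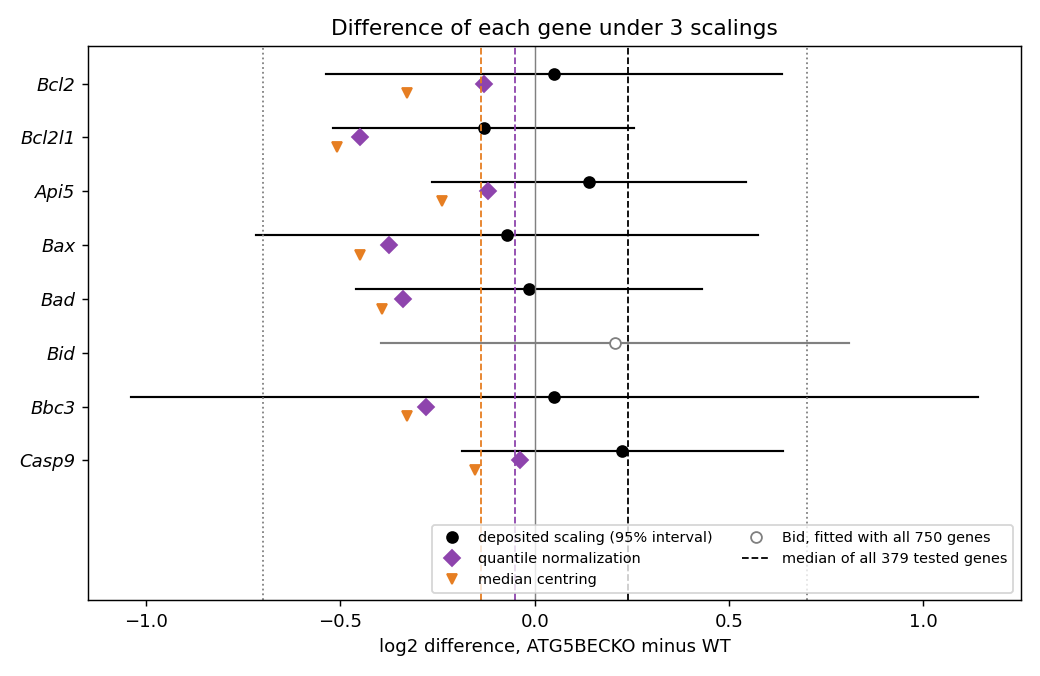
Log2 differences, ATG5BECKO minus WT (x axis), of the 8 genes (y axis) with the deposited scaling (black, with 95% interval), after quantile normalization (purple) and after median centring (orange). Dashed lines in the same colors are the medians of all tested genes (0.24, -0.05 and -0.14), and dotted lines mark 0.7 either way. The 7 tested genes are all left of 0 under both other scalings. Most of all tested genes were negative there too, with 42.2% positive after quantile normalization and 33.0% after median centring. The intervals of Bax, Bbc3 and the low-signal Bid reach beyond 0.7.

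The balance between inhibitors and effectors was compared within samples, where the scaling factor of a sample cancels. Bcl2 minus Bax was -0.49, -0.82 and -1.16 on the log2 scale in ATG5BECKO replicates 2, 3 and 5, against -1.03, -1.48 and -0.33 in WT replicates 1, 4 and 6. The WT values enclosed those of ATG5BECKO TECs, and the group means were -0.83 ± 0.34 in ATG5BECKO and -0.95 ± 0.58 in WT TECs (SD, n = 3 each, exact two-sided permutation p = 0.80). The value of 1 probe minus another has no meaning as a level, and only its difference between groups is read. Bcl2l1 minus Bax was 0.41, 0.57 and -0.12 in ATG5BECKO TECs, against 0.37, 0.12 and 0.56 in WT TECs. Here too the groups overlapped, with means of 0.29 ± 0.36 in ATG5BECKO and 0.35 ± 0.22 in WT TECs (SD, n = 3 each, exact two-sided permutation p = 0.90). With Benjamini-Hochberg adjustment over the 2 comparisons both had p = 0.90 by the exact permutation test, which with 3 against 3 samples cannot go below 0.10.

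The mean of the 3 anti-apoptotic genes minus the mean of the 4 tested pro-apoptotic genes was 0.85, 0.74 and 0.58 in ATG5BECKO TECs, against 0.58, 1.00 and 0.69 in WT TECs. The group means, 0.73 ± 0.13 in ATG5BECKO and 0.75 ± 0.22 in WT TECs (SD, n = 3 each), differed by less than either SD. The difference of -0.03 was -0.06 with Bid included.

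**Figure D3:**
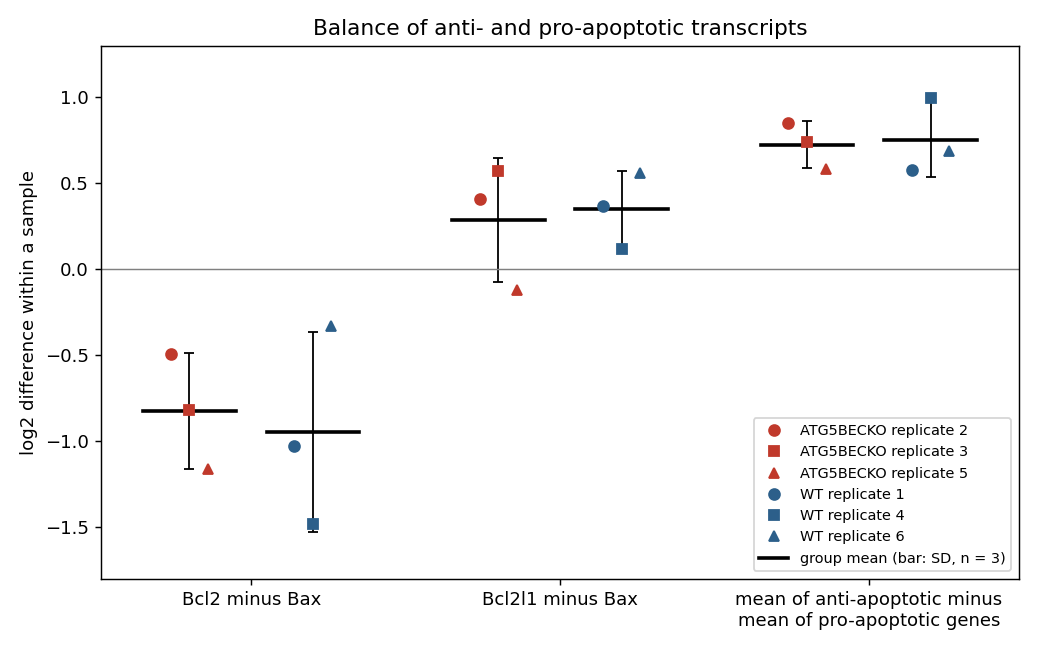
Log2 differences within a sample (y axis) for Bcl2 minus Bax, Bcl2l1 minus Bax and the mean of 3 anti-apoptotic minus that of 4 pro-apoptotic genes (x axis), with 1 point per sample, ATG5BECKO in red to the left of WT in blue, a line at the mean and bars of 1 SD (n = 3). The groups overlap in each of the 3 measures, and WT replicate 4 is lowest in Bcl2 minus Bax at -1.48.

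The genes most like each member in their pattern over the 6 samples were found by the root mean square distance of mean-centered log2 values among the tested genes. They were Ptcd2 for Bcl2 (distance 0.10), Got2 for Bcl2l1 (0.05), Ifi35 for Api5 (0.07), Nectin2 for Bax (0.18), Cmtm4 for Bad (0.08), Cenpf for Bbc3 (0.09) and Parp4 for Casp9 (0.08). None of the 7 genes had another member as its nearest gene, which says little with 7 members among 379 tested genes. Within the family the closest pair was Api5 and Bad (distance 0.13) and the most distant was Bax and Bbc3 (0.72).

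Genes acting around the mitochondrial step were taken from 5 lists and from the panel's own apoptosis annotation. Execution and death receptor genes showed mostly small positive differences. Of the 10, 7 were tested, and all 7 were positive, against 74.4% of all tested genes (median 0.21, against 0.24). None (0) reached an unadjusted p under 0.05 in limma, against 16.1% of all tested genes. The initiator caspase of the death receptor route, Casp8, was at 0.21 (SE 0.19). The smallest p values were those of Ripk1, a kinase at death receptor complexes, at 0.39 (SE 0.18, limma unadjusted p = 0.0746, adjusted p = 0.351), and of Tnfsf10, which encodes the death ligand TRAIL, at 0.74 (SE 0.40, limma unadjusted p = 0.108, adjusted p = 0.382). Tnfsf10 was at 1.203 without WT replicate 6 (limma unadjusted p = 0.00118, adjusted p = 0.0411), the one WT sample above the ATG5BECKO samples, and at 0.41 without WT replicate 4. After median centring 2 of the 7 were positive, against 33.0% of all tested genes.

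Of the 2 inhibitor of apoptosis genes, Birc3 (cIAP2, an NF-κB target that ubiquitinates RIPK1) had log2 normalized counts of 6.82, 7.23 and 6.72 in ATG5BECKO TECs, against 6.36, 5.77 and 6.24 in WT TECs. Every ATG5BECKO sample was above every WT sample. Birc3 was higher by 0.80 (SE 0.24, limma unadjusted p = 0.0130), which reached the study's thresholds but not the adjusted threshold (adjusted p = 0.164). It was higher by 0.42 (SE 0.24, unadjusted p = 0.124) after median centring and by 0.46 (SE 0.20, unadjusted p = 0.0589) after quantile normalization. Without ATG5BECKO replicate 3 (0.64) or WT replicate 4 (0.62) it stayed under 0.7. The mitotic survivin gene Birc5 was at -0.21 (SE 0.30, limma adjusted p = 0.795).

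In the p53 pathway 3 of 5 genes were tested and 0 reached an unadjusted p under 0.05 in limma, against 16.1% of all tested genes. Mdm2, the ubiquitin ligase of p53, was at 0.50 (SE 0.23, unadjusted p = 0.0711), the cell cycle inhibitor Cdkn1a at 0.71 (SE 0.36, unadjusted p = 0.0929) and Trp53 itself at -0.12 in the limma fit. Mdm2 reached 0.68 without WT replicate 6 (limma unadjusted p = 0.0199, adjusted p = 0.128) and was at 0.33 without WT replicate 4. Cdkn1a was at 0.32 without ATG5BECKO replicate 3, its highest sample. Bnip3 and Bnip3l, mitophagy receptors with a BH3 domain, were at 0.82 (SE 0.55, unadjusted p = 0.181) and 0.55 (SE 0.19, unadjusted p = 0.0222, adjusted p = 0.196) in limma. Thus 1 of the 2 passed the unadjusted threshold, which 15.3% of all tested genes passed as higher. Bnip3 was at 0.26 without ATG5BECKO replicate 3, its highest sample, and at 0.43 without WT replicate 6, its lowest. Bnip3l passed under 8 of 14 alternatives. In limma it missed the threshold after median centring (0.17, unadjusted p = 0.453), after quantile normalization (0.22, unadjusted p = 0.161), with no filter (unadjusted p = 0.0587) and without ATG5BECKO replicate 3, WT replicate 1 or WT replicate 4 (unadjusted p = 0.0533, 0.0501 and 0.0588).

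The AKT branch, through which survival signals keep Bad phosphorylated, held more such genes. Of 6 tested genes 5 were positive, against 74.4% of all tested genes, and the median was 0.51, against 0.24. The groups did not overlap for 5 of the 6, with ATG5BECKO higher, against 25.6% of all tested genes in this direction. An unadjusted p under 0.05 in limma was reached by 3 as higher, against 15.3% of all tested genes in this direction. Among these 3 were Rps6kb1 and, named after its values were seen, Pik3r1. Rps6kb1, an S6 kinase downstream of mTORC1, had log2 normalized counts of 6.34, 6.19 and 6.26 in ATG5BECKO TECs, against 5.41, 5.15 and 6.00 in WT TECs. WT replicate 6 lay nearest to the ATG5BECKO samples, without overlap. The difference was 0.74 (SE 0.25, limma unadjusted p = 0.0206, adjusted p = 0.185), and Akt1 was at -0.14 (SE 0.19). Rps6kb1 missed the unadjusted threshold in limma without ATG5BECKO replicate 2 or 5 or WT replicate 1 or 4 (unadjusted p = 0.0518 to 0.0672). With median centring 0 of the 6 genes passed the unadjusted threshold, and without WT replicate 4 only 1 did. After quantile normalization 2 were higher and Akt1 was lower, at -0.45 (limma unadjusted p = 0.0412, adjusted p = 0.289).

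In the panel's apoptosis annotation 31 genes were tested, 22 (71.0%, against 74.4% of all tested genes) were positive, 6 (19.4%, against 15.3%) were higher at an unadjusted p under 0.05 in limma and 4 (12.9%, against 10.8%) were higher at the study's thresholds. These shares were near those of all tested genes. None of the 4 past the study's thresholds was a member. They were Birc3, the inflammatory caspase Casp1 (1.02, SE 0.31, unadjusted p = 0.0132), Cd14 (0.97, SE 0.27, unadjusted p = 0.00966), a receptor for lipopolysaccharide that monocytes also carry, and the kinase Rock1 (0.87, SE 0.33, unadjusted p = 0.0335). The groups did not overlap for Birc3, Casp1 and Cd14 but did for Rock1, where WT replicate 6, at a log2 normalized count of 6.63, was above ATG5BECKO replicate 2, at 6.52. Rock1 missed the unadjusted threshold in limma after median centring (0.49, unadjusted p = 0.104), after quantile normalization (0.58, unadjusted p = 0.0517) and without ATG5BECKO replicate 3 or 5 or WT replicate 1 or 4 (unadjusted p = 0.0775 to 0.112). Casp1 and Cd14 were higher at an unadjusted limma p under 0.05 under each of their 13 alternatives, with limma adjusted p = 0.164 and 0.145 in the main fit. Their WT values were near the low-signal level. Casp1 in WT replicates 4 and 6 (4.52 and 5.48) was below the 95th percentile of the low-signal genes (4.54 and 5.57). Cd14 was below it in WT replicates 1 and 6 (4.98 and 5.41, against 5.25 and 5.57). All ATG5BECKO values of both genes were above it.

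**Figure D4:**
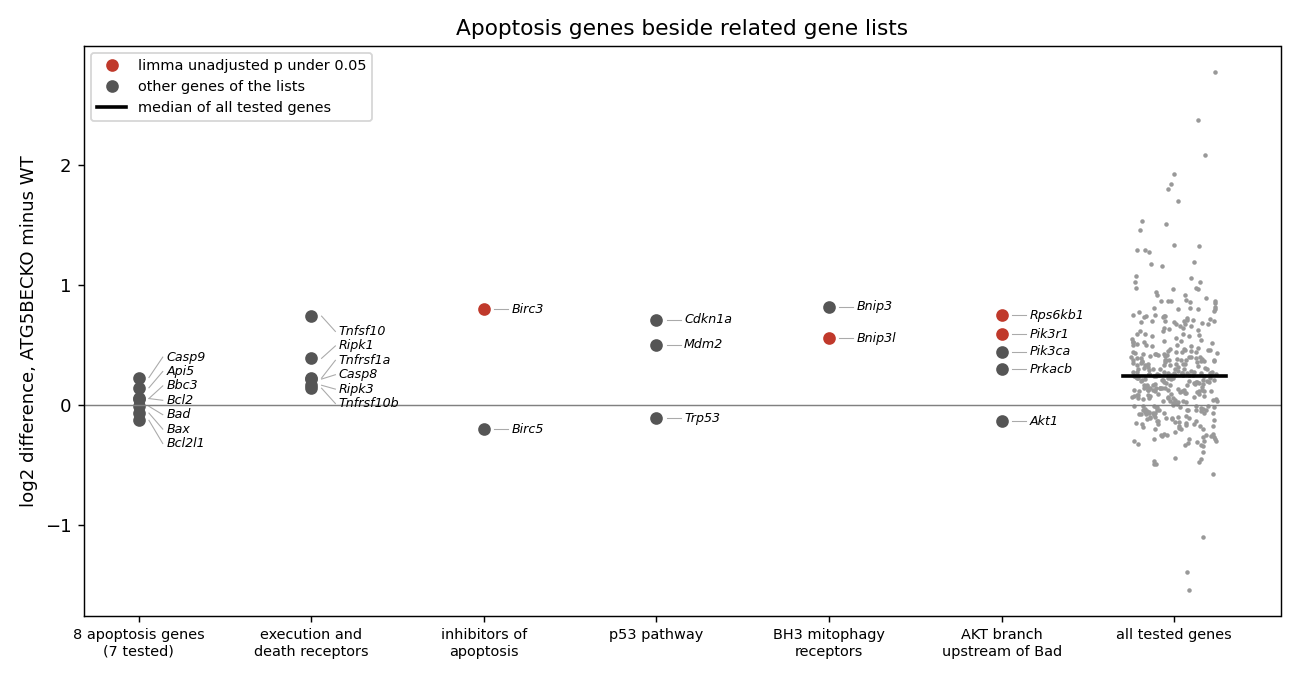
Log2 differences, ATG5BECKO minus WT (y axis), of the 7 tested apoptosis genes, of genes of 5 related lists (without those not reported here) and of all 379 tested genes (x axis). Red points have an unadjusted limma p under 0.05, dark grey points do not, and the black line is the median of all tested genes (0.24). The 7 genes lie between -0.13 and 0.23, while Birc3, Bnip3l, Rps6kb1 and Pik3r1 are red.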

How the data were processed

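NanoString nCounter counts of sorted TECs were analysed from 3 ATG5BECKO and 3 WT samples, grouped by their labels. In nSolver 4.0 the authors divided each sample's counts by a factor set by housekeeping genes, and the deposited log2 values (750 genes) had no background subtracted. The methods name an immune profiling panel whose gene content looks different from the table's, and which panel was run is not settled here. No aligner or build applies. The tested genes are the 379 that nSolver kept, by name from the study's source data, and 371 others had low signal. Whole counts were recovered from the deposited values (100% whole within a tolerance of 0.01) and give the depth. Counting SDs cover counting error only.

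Log2 differences, intervals of 95% and p-values came from limma 3.58.1 in R 4.3.3 (lmFit, eBayes), with Benjamini-Hochberg adjustment over the 379 genes. The fit was tested on simulated data. Exact permutation tests used scipy 1.17.1, and figures matplotlib 3.10.9. Alternatives were no filter, a mean log2 of at least 6, median centring, quantile normalization, trend and robust limma, the methods' t-test, an offset of 10, voom on the recovered counts and leaving out each sample. Named genes are the 8 members, the genes of each list past the study's thresholds (otherwise the 2 with the smallest p) and the gene nearest in pattern to each tested member. The members and lists were chosen with earlier results of these data known. Some genes that this rule takes are not reported here by name.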

Additional observations from a re-analysis of the deposited data

How the results depend on the processing

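No paired analysis was made. The replicate numbers are running sample numbers, and no pairing of littermates is given in the sources used here. No tested member passed an adjusted p of 0.05 under any of the 14 alternatives. At an unadjusted p under 0.05, 1 member (Bcl2l1) was lower after median centring and 1 after quantile normalization, against 0 with the deposited scaling. Median centring turned the differences of Bcl2 to -0.33, Api5 to -0.24, Bbc3 to -0.33 and Casp9 to -0.15, and quantile normalization to -0.13, -0.12, -0.28 and -0.038. Median centring shifts all genes of a sample by the same amount, and why the sample medians differed was not tested.

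Leaving out 1 sample moved the difference between -0.065 and 0.23 for Bcl2, -0.30 and 0.10 for Bax, -0.080 and 0.11 for Bad and -0.47 and 0.43 for Bbc3, all of which turned sign. It also turned the within-sample differences, between -0.15 and 0.43 for Bcl2 minus Bax, -0.20 and 0.14 for Bcl2l1 minus Bax and -0.12 and 0.094 for the mean of anti-apoptotic minus that of pro-apoptotic genes. Birc3, Rps6kb1, Bnip3l and Rock1 missed an unadjusted p of 0.05 after median centring, and Rps6kb1, Casp1 and Cd14 passed it after quantile normalization, with Casp1 and Cd14 also passing after median centring. Voom passed Ripk1 (0.42), Tnfsf10 (0.98) and Mdm2 (0.61), and trend and robust limma and the methods' t-test passed Ripk1. Of 260 values of single genes under alternatives, 211 kept their direction and side of the unadjusted threshold.

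Over all tested genes, 41 were higher and 3 lower at the study's thresholds, against 17 and 13 after median centring and 21 and 9 after quantile normalization. At an adjusted p under 0.05 limma called none. At an unadjusted p under 0.05 it had 58 higher genes and 3 lower ones. These 3 were the tested fibroblast and mural markers. At the adjusted threshold 19 higher and 1 lower were called by voom, and 16 and 2 without WT replicate 6. Of the 8 genes Bid had the fewest counts, at 13 to 30 per sample, and its counting SD (0.30) was above its within-group SD (0.20).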
